A study of Homo sapiens with 6 samples.

Results

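The collagen genes were followed in a pair of cybrids, cells made by fusing enucleated donor cells with a cell line that has lost its mitochondrial DNA. Members were the probe sets that the platform's table assigns to a single symbol of the form COL, number, A, number, without antisense genes. They came to 112 of 41091 probe sets with 1 symbol and to 43 of 19775 genes. In 10A/143B the mitochondria came from MCF10A, a non-tumorigenic mammary epithelial line, and in 468/143B from MDA-MB-468, a breast cancer line. The nucleus of both came from 143B p0, the mitochondrial-DNA-free and thymidine-kinase-negative osteosarcoma line, and both were selected with bromodeoxyuridine in medium lacking uridine. Donor cells had been enucleated with actinomycin D and fused with polyethylene glycol. For each cybrid 3 arrays of the Affymetrix HG-U133 Plus 2.0 type were hybridised. The labels do not say whether a cybrid is 1 clone or whether the extractions came from separate cultures, so p-values here reflect array-to-array spread alone, and that spread can be technical. The sample titles name the groups by the mitochondrial donor, although the cells carry the 143B nucleus. The cybrid with 143B mitochondria that the protocols describe was not analysed here.

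Collagens are secreted or membrane proteins whose chains wind around each other into a rope-like helix of Gly-X-Y repeats. Fibrillar collagens, above all types I, III and V, form the ropes of bone, skin and tendon. Type IV collagen forms the network of basement membranes, and the other classes coat fibrils, form beaded filaments around cells or span the cell membrane. Osteoblasts lay down type I collagen as the organic matrix of bone, while a mammary epithelium rests on type IV collagen.

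Of the 43 collagen genes, 8 differed between the cybrids, 3 higher and 5 lower in 10A/143B, and 35 did not pass the test (limma, adjusted p at 0.05, 1 probe set per gene, n = 3 arrays per group). In the same fit 35.6% of all genes passed, 19.9% higher and 15.7% lower, so that collagens, at 18.6%, passed at a share below that of all genes. Their median log2 difference was -0.05, beside -0.02 for all genes. COL8A1 was higher, and COL6A2, COL9A3, COL6A1 and COL5A2 were lower, with fold changes between 1.44 and 3.59. These 5 genes, 1 higher and 4 lower, also passed when the near-duplicate replicates 2 and 3 of each group were averaged to 1 sample (22.7% of all genes passed, 13.8% higher and 8.9% lower), whereas the other 3, COL4A3, COL27A1 and COL18A1, did not. The arrays of the groups did not overlap for 14 of the 43 genes, against 45.8% of all genes.

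Much of the family was dim in both cybrids. On log2(intensity + 16), the scale of all tests here, 19 of the 43 genes lay below the median of all probe sets (5.24) in both group means, and 0 of these 19 passed. Their intensities ran from 1, the lowest value on the arrays, to 29.4. The remaining 24 genes were 55.8% of the collagens, where 66.4% of all genes lay at or above that median. In a fit to genes at or above the median, 9 of the 24 collagens passed (3 higher, 6 lower), or 37.5%, beside 55.3% of the 13121 genes in that fit (30.6% higher, 24.8% lower). No detection calls were used, so a dim gene could not be called absent. In a bulk sample, fewer cells of a type and less RNA per cell cannot be told apart.

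**Figure D1:**
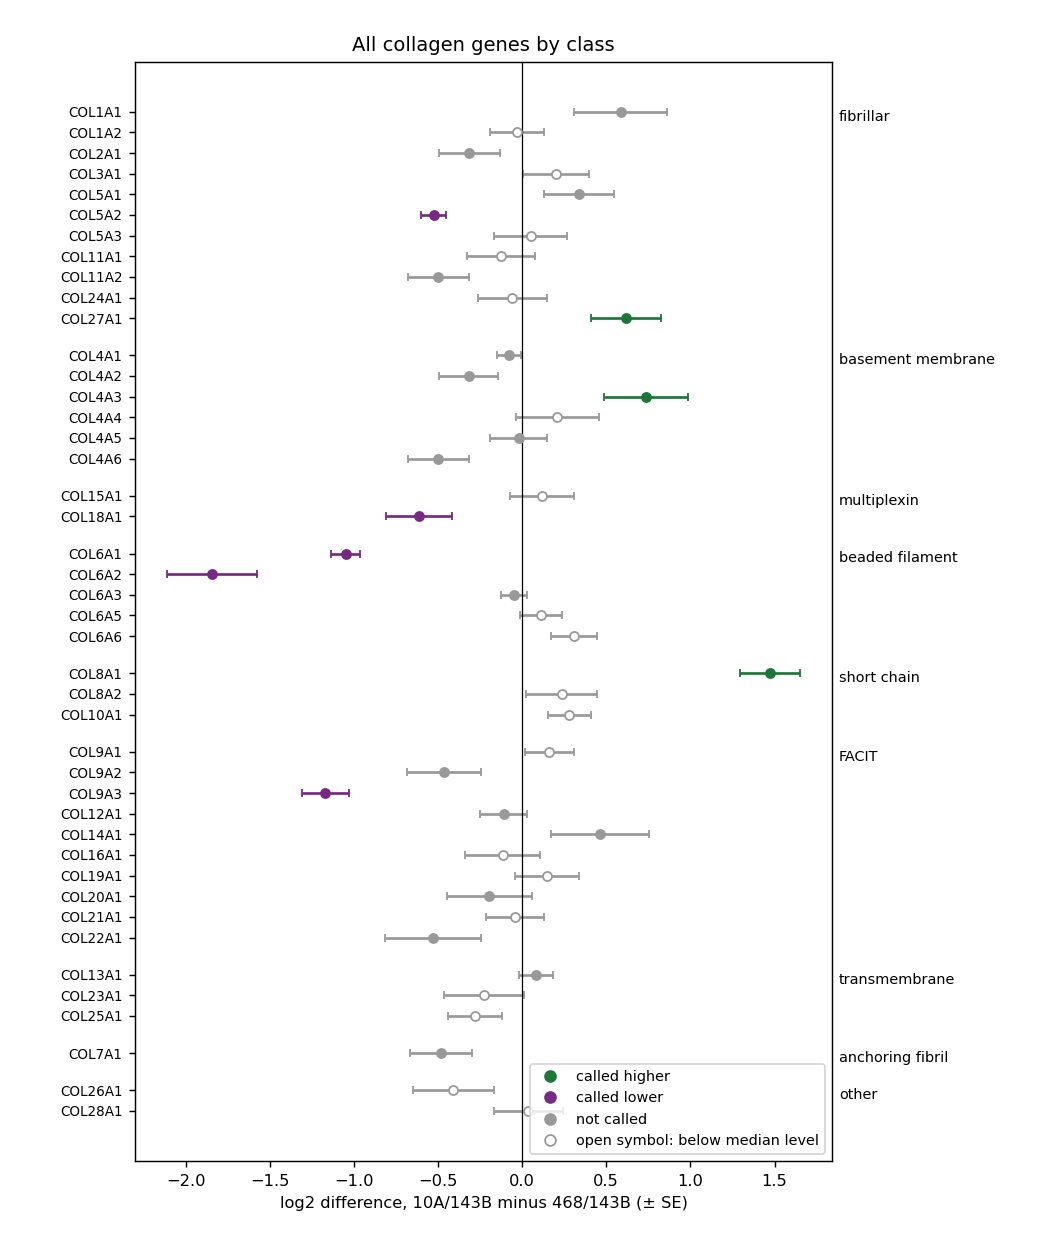
Log2 difference (10A/143B minus 468/143B, ± SE, n = 3 arrays per group) of the 43 collagen genes, 1 probe set each, grouped by class; green genes passed as higher, purple as lower, grey did not pass, and open symbols lie below the median level in both groups. COL6A2 lies lowest at -1.84 and COL8A1 highest at 1.47, while COL6A3 lies at -0.05.

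Type VI collagen, which forms beaded filaments close to the cell surface, is built from the chains of COL6A1, COL6A2 and COL6A3. The former pair fell in 10A/143B. Listed by replicate (1, 2, 3), the COL6A1 intensities of 10A/143B were 377.4, 436.5 and 424.6, and those of 468/143B were 797.9, 942.3 and 873.1. Every 10A/143B array thus lay below every 468/143B array. On the log2 scale this was 8.74 ± 0.11 against 9.79 ± 0.12 (SD, n = 3), a difference of -1.05 ± 0.09 (SE, limma adjusted p = 3.31e-05, and 0.00115 with replicates 2 and 3 averaged). COL6A2 stood at 70.0, 139.1 and 162 in 10A/143B and at 357.1, 508.5 and 545 in 468/143B. It was the collagen with the largest difference, 3.59-fold lower (log2 -1.84 ± 0.27, adjusted p = 7.14e-04, and 0.00405 averaged), although replicate 1 was the lowest array of each group. COL6A3, the chain that gives the filament its long N-terminal extension, was bright on all 6 arrays. Its intensities were 1438, 1675 and 1746 in 10A/143B and 1629, 1698 and 1675 in 468/143B, so that the groups overlapped (-0.05 ± 0.08, adjusted p = 0.705).

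The unequal change of the chains was also read within each array. Relative to COL6A3, COL6A1 was lower in 10A/143B by 1.00 on the log2 scale and COL6A2 lower by 1.80. The within-array difference of COL6A1 from COL6A3 was -1.93 ± 0.06 in 10A/143B and -0.93 ± 0.09 in 468/143B, and that of COL6A2 was -3.61 ± 0.41 and -1.81 ± 0.29 (SD, n = 3). These relations were chosen with the chains' own differences known, so they are given as a description without a test. The late-described chains COL6A5 (0.11 ± 0.13) and COL6A6 (0.31 ± 0.14) did not pass and were dim, with intensities from 1.30 to 9.0 over both genes.

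Several probe sets carried the difference in COL6A1 and COL6A2. Among the 8 probe sets of COL6A1, 3 passed as lower (-1.05, -1.52 and -1.84), and the other 5, each with intensities of at most 52.0, ranged from -0.57 to -0.03 and did not pass. The second probe set of COL6A2 passed as well, at intensities of 43.1, 56.9 and 62.2 against 130.7, 173.6 and 166.6 (-1.30 ± 0.17, adjusted p = 4.88e-04 in the fit to all probe sets). The 3 passing probe sets of COL6A1 all carry the suffix _s_at, which marks probes shared by several transcripts. With _x_at and _s_at probe sets left out, COL6A1 rested on a dim probe set and did not pass (-0.57, adjusted p = 0.125).

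The promoters of a type VI chain that fell and of the chain that did not are shown because the chains of this trimer moved unequally. Both are RefSeq sequences of GRCh38.p14, the 250 bases before the annotated start on the gene's own strand, with motif matches in capitals. COL6A2 covers chr21:46097862-46098111 on the plus strand and COL6A3 chr2:237414165-237414414 on the minus strand.
COL6A2: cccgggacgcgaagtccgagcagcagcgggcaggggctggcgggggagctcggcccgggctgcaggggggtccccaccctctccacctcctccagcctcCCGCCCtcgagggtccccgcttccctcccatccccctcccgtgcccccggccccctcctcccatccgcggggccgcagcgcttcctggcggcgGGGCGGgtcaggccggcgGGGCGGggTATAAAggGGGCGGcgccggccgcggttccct
COL6A3: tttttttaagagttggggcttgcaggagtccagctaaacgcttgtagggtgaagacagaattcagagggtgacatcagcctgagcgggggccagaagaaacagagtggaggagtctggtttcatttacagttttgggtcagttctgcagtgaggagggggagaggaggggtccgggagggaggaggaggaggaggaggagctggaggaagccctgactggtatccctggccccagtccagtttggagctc
Motifs were searched on both strands as exact letters. These were the GC box GGGCGG, found in 42.6% of 35116 promoters when the 250 bases before each start were searched, the CCAAT box CCAAT (32.0%), the TATA box TATAAA (10.7%) and the AP-1 site TGANTCA (6.57%). COL6A2 held 4 GC boxes and 1 TATA box, and 79.6% of its bases were G or C. The COL6A3 window held 0 matches to these letters, at 56.0% G or C. A match is a description of the letters and not of a factor's binding.

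**Figure D2:**
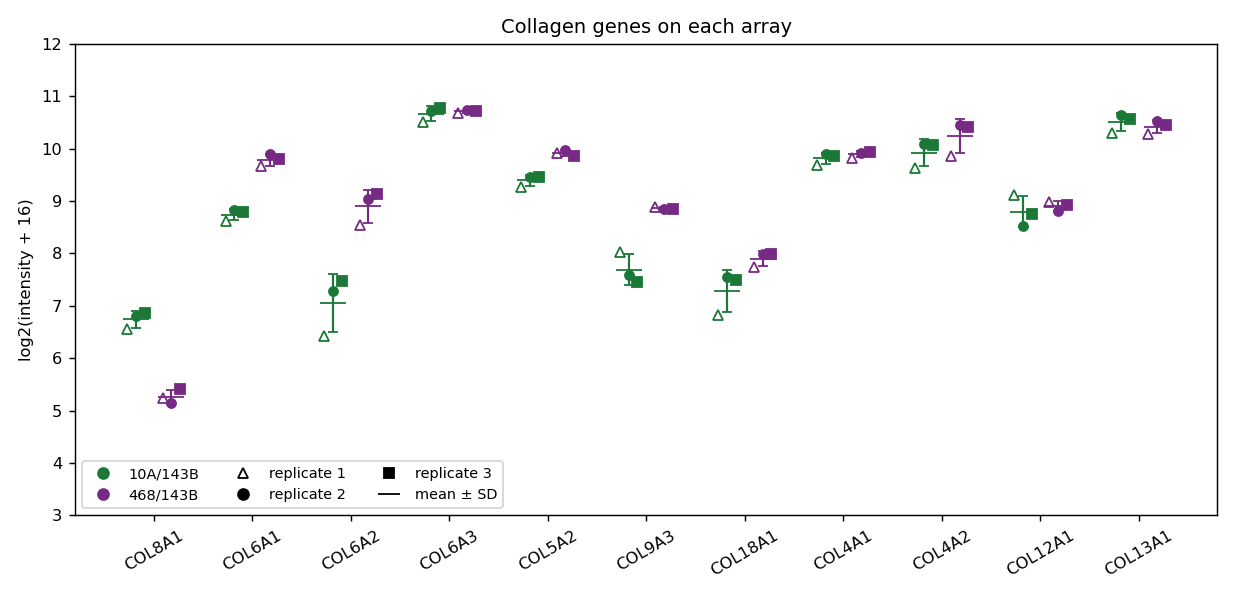
Log2(intensity + 16) of 11 collagen genes on each array (green 10A/143B, purple 468/143B, marker shape by replicate), with bars for mean ± SD of 3 arrays; levels of different genes are not comparable, since each rests on its own probes. The groups lie apart for COL8A1, COL6A1, COL6A2, COL5A2, COL9A3 and COL18A1 and overlap for COL6A3, COL4A1, COL4A2, COL12A1 and COL13A1.

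Among the 11 fibrillar collagen genes, 1 was lower and 1 higher. COL5A2 encodes a chain of type V collagen, which sits inside type I fibrils and limits their width. It had intensities of 604.7, 689.8 and 685 in 10A/143B against 955.4, 996 and 916.5 in 468/143B, without overlap. The log2 levels were 9.40 ± 0.10 and 9.92 ± 0.06 (SD, n = 3), so that COL5A2 was 1.44-fold lower (-0.53 ± 0.07, adjusted p = 5.47e-04, and 0.00959 averaged). Its other probe set fell further, from a range of 744.4 to 975.5 in 468/143B to one of 404.5 to 436.5 in 10A/143B (-1.03 ± 0.11, adjusted p = 1.56e-04 over all probe sets). COL5A1, the partner chain, had intensities of 50.9, 85.6 and 85.6 against 51.6, 60.1 and 50.6. Its groups overlapped and it did not pass (0.34 ± 0.21, adjusted p = 0.265), with 0.54 and an adjusted p of 0.0223 when replicate 1 of 10A/143B was left out. The related type V chain COL5A3 was dim and did not pass (0.05 ± 0.22).

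The chains of type I collagen gave no settled difference. COL1A2 stood between 4.56 and 13.1 on the 6 arrays and did not pass (-0.03 ± 0.16, adjusted p = 0.911). On its brightest probe set COL1A1 had intensities of 52.0, 106.9 and 106.9 in 10A/143B and of 41.6, 71.5 and 44.3 in 468/143B (0.58 ± 0.28, adjusted p = 0.149, but 0.0479 with the replicate number as a block, where 39.2% of all genes passed). It also passed as higher without replicate 1 of 10A/143B (0.87, adjusted p = 0.0134). Another of its 5 probe sets pointed the opposite way and passed in the fit to all probe sets, with 30.3, 1.06 and 4.35 against 83.9, 40.8 and 51.6 (-1.53 ± 0.39, adjusted p = 0.0178, and 0.0922 averaged). The remaining 3 probe sets lay between -0.42 and -0.22 and did not pass. The brightest probe set of COL1A1, alone above 0, carries the suffix _x_at, which marks probes that may cross-hybridise, and the others carry _s_at. COL1A1 therefore has no settled direction. COL3A1, which accompanies type I collagen in soft tissue, lay between 3.25 and 17.8 and did not pass (0.20 ± 0.20, adjusted p = 0.499).

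COL2A1, the main fibril collagen of cartilage, stood at 28.8, 20.1 and 22.9 against 36.5, 31.8 and 32.2, and although its arrays did not overlap, the difference of -0.31 ± 0.18 did not pass (adjusted p = 0.229). Of its partners in the cartilage fibril, COL11A2 (-0.50 ± 0.18, adjusted p = 0.0634) and COL11A1 (-0.13 ± 0.20) did not pass, nor did COL24A1, a further fibrillar gene (-0.06 ± 0.21). COL27A1, a fibrillar collagen with a shorter helix, passed narrowly as higher, with 95.01, 133.4 and 136.2 against 54.95, 94.35 and 73.52 (0.62 ± 0.21, adjusted p = 0.0473, but 0.181 averaged). A second of its 5 probe sets passed as lower in the fit to all probe sets, with 54.95, 40.5 and 38.59 against 81.0, 96.3 and 79.3 (-0.75 ± 0.17, adjusted p = 0.0106, and 0.138 averaged). COL27A1 thus depended on the probe set.

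**Figure D3:**
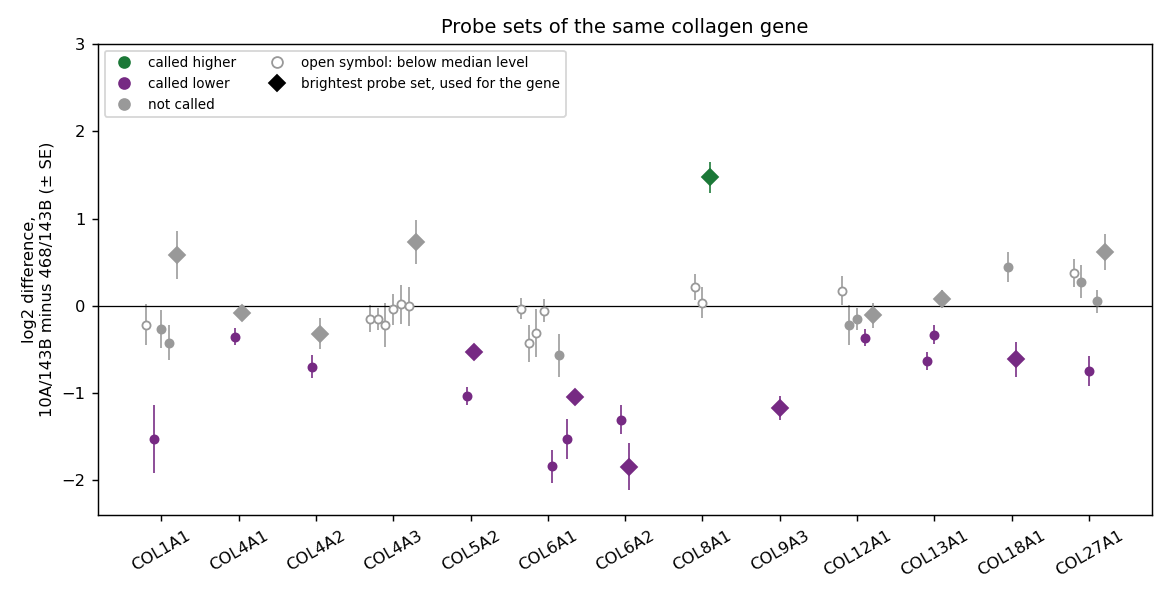
Log2 difference (10A/143B minus 468/143B, ± SE) of each probe set of 13 collagen genes in the fit to all probe sets, with diamonds for the brightest probe set, which represents the gene elsewhere. Every probe set of COL6A1, COL6A2 and COL5A2 lies below 0. COL1A1, COL13A1, COL18A1 and COL27A1 have bright probe sets on both sides of 0, of which those that passed lie below it.

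Basement membrane collagen was measured through the 6 genes of type IV, whose chains come in 3 pairs of neighbouring genes read in opposite directions. In the fit to 6 arrays COL4A3 passed as higher and 0 of the 6 passed as lower on its brightest probe set. COL4A1 and COL4A2, which make the chains found in nearly every basement membrane, were bright in both cybrids. COL4A1 had intensities of 814.6, 935.8 and 910.2 in 10A/143B and of 891.4, 948.8 and 968.8 in 468/143B, which overlapped (-0.08 ± 0.07, adjusted p = 0.466). COL4A2 stood at 776, 1067 and 1060 against 916.5, 1389 and 1351 (-0.32 ± 0.18, adjusted p = 0.211). In both groups replicate 1 of COL4A2 was the lowest array, and with the replicate number as a block the gene passed as lower (adjusted p = 0.00357), as it did without replicate 1 of 468/143B (-0.51, adjusted p = 0.0300). The dimmer probe set of each gene passed as lower in the fit to all probe sets, where 31.0% of probe sets passed. That of COL4A1 stood at 315.2, 261.4 and 261.4 against 364.6, 357.1 and 357.1 (-0.35 ± 0.10, adjusted p = 0.0236, but 0.228 averaged). That of COL4A2 stood at 268.7, 372.2 and 357.1 against 481, 596.3 and 560.3 (-0.70 ± 0.14, adjusted p = 0.00459, and 0.0334 averaged).

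COL4A1 and COL4A2 share the stretch between their starts, which is shown because the pair of bright type IV genes had its probe sets on the same side of 0. The 126 bases cover chr13:110307158-110307283 of GRCh38.p14, given on the plus strand, on which COL4A2 is read to the right and COL4A1 from the other strand to the left. Capitals mark motif matches.
COL4A1/COL4A2: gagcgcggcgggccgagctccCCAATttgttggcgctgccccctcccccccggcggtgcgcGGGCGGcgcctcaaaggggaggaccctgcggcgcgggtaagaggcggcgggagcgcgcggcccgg
It held 1 CCAAT box and 1 GC box, 0 TATA boxes and 0 AP-1 sites, at 80.2% G or C. Promoter sequences were matched for 31 of the 43 collagen genes, of which 21 held a GC box, 10 a CCAAT box, 6 a TATA box and 1 an AP-1 site within 250 bases before at least 1 annotated start. These counts are per gene, over 43 promoters in all. The shares given above are per promoter, so the counts cannot be set against them.

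The remaining type IV genes were dimmer. COL4A3, a chain of the kidney's filtering membrane, had 29.2, 61.8 and 55.3 in 10A/143B against 23.9, 16.2 and 26.3 in 468/143B (0.73 ± 0.25, adjusted p = 0.0499, but 0.279 averaged). That is 1 of its 7 probe sets, which missed the threshold in the fit to all probe sets (adjusted p = 0.0581), and the other 6 lay between -0.22 and 0.02 at intensities of at most 14.4 and did not pass either. COL4A4 (0.21 ± 0.25) and COL4A5 (-0.02 ± 0.17) did not pass, nor did COL4A6, which had 10.1, 18.5 and 11.47 against 25.1, 28.4 and 22.0 (-0.50 ± 0.18, adjusted p = 0.0671). Another COL4A6 probe set lay on the other side, at 25.5, 16.7 and 20.7 against 13.6, 3.46 and 15.45. It did not overlap and did not pass either (0.48 ± 0.22, adjusted p = 0.151 over all probe sets), so COL4A6 has no settled direction. COL18A1 and COL15A1 are the multiplexins of the basement membrane zone. COL18A1, the source of the fragment endostatin, stood at 97.0, 172.4 and 163.1 against 196.7, 237.2 and 237.2. Replicate 1 was again the lowest array of each group, and the gene passed narrowly as lower (-0.61 ± 0.20, adjusted p = 0.0389, but 0.0993 averaged). Without replicate 1 of 10A/143B the difference was -0.38. Its second probe set lay on the other side, at 69.1, 71.0 and 73.0 against 37.5, 49.5 and 58.1, and did not pass (0.45 ± 0.17, adjusted p = 0.0895 over all probe sets). COL15A1 was dim and did not pass (0.12 ± 0.19).

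COL8A1 was the collagen that rose most. It encodes a short-chain collagen of vessel walls and the membrane under the corneal endothelium. Its intensities were 78.2, 95.7 and 100.4 in 10A/143B and 22.0, 19.4 and 26.5 in 468/143B, so that the lowest 10A/143B array lay well above the highest 468/143B array. The difference was 2.78-fold (log2 6.74 ± 0.16 against 5.27 ± 0.13, SD, n = 3, difference 1.47 ± 0.18, adjusted p = 2.68e-04, and 0.00947 averaged). The size depended on the offset and the probe sets, at 0.84 with an offset of 64, 1.97 with an offset of 1 and 0.58 with the mean of probe sets, and the gene passed under each. Its other 2 probe sets stayed at 3.32 to 19.0 on all arrays and did not pass (0.04 and 0.22). The other short-chain genes COL8A2 (0.24 ± 0.21) and COL10A1 (0.28 ± 0.13) were dim and did not pass.

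Among the 10 fibril-associated (FACIT) genes, COL9A3 fell. Type IX collagen coats the type II fibrils of cartilage, and COL9A3 encodes its alpha-3 chain. Intensities were 243.9, 177.3 and 159.8 in 10A/143B and 458.3, 445.7 and 442.6 in 468/143B. The groups did not overlap, and COL9A3 was 2.25-fold lower (7.69 ± 0.29 against 8.86 ± 0.03, SD, n = 3, difference -1.17 ± 0.14, adjusted p = 2.3e-04, and 0.00426 averaged). It was measured by 1 probe set. COL9A2 lay on the same side without passing (-0.46 ± 0.22, adjusted p = 0.147) and its second probe set likewise (-0.52), while COL9A1 was dim (0.16 ± 0.14). COL12A1, which binds type I fibrils, was bright in both cybrids at 352.1 to 537.5 against 430.5 to 491.1, and overlapped (-0.11 ± 0.14, adjusted p = 0.612). Of its 5 probe sets 1 passed as lower (-0.36 ± 0.10, adjusted p = 0.0253, but 0.154 averaged). COL14A1, COL16A1, COL19A1, COL20A1, COL21A1 and COL22A1 did not pass, with differences from -0.53 to 0.46.

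Membrane-spanning collagens did not pass on their brightest probe sets. COL13A1, a transmembrane collagen of cell adhesions, stood at 1252, 1574 and 1510 against 1226, 1468 and 1389 (0.08 ± 0.10, adjusted p = 0.592). Its other 2 probe sets both passed as lower (-0.63 ± 0.10, adjusted p = 0.00177, and -0.33 ± 0.11, adjusted p = 0.0484, with 0.0447 and 0.248 averaged), and both carry the suffix _x_at, which marks probes that may cross-hybridise. COL23A1 and COL25A1 were dim and did not pass. COL7A1, the anchoring fibril of skin, had 18.4, 14.8 and 9.85 against 22.3, 27.3 and 29.0, which did not overlap, yet did not pass (-0.48 ± 0.18, adjusted p = 0.0760). COL26A1 and COL28A1 did not pass either. COL17A1, a collagen of the hemidesmosomes of basal epithelium, was not analysed here.

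Counted by probe set, 17 of 112 (15.2%) passed, 16 lower and 1 higher in 10A/143B, where 12.4% of all probe sets passed as lower and 18.6% as higher. With replicates 2 and 3 averaged it was 10 lower and 1 higher, where 17.9% of all probe sets passed (6.14% lower, 11.7% higher). With the replicate number as a block it was 17 lower and 2 higher, where 33.6% of all probe sets passed (13.8% lower, 19.7% higher). Of the 35 genes with more than 1 probe set and the 8 with a single one, 12 had at least 1 passing probe set, and 0 had probe sets that passed in both directions within that fit. The higher probe sets of COL27A1 (adjusted p = 0.0506) and COL4A3, which passed among genes, both missed the threshold there. The 66 probe sets below the median level included 0 that passed.

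The balance of directions depended on the scaling of the arrays. As deposited, 55.8% of all calls were higher in 10A/143B, against 45.7% after quantile normalization and 46.0% after median centring. Among collagen genes the counts went from 3 higher and 5 lower to 1 higher and 9 lower with quantile normalization (37.6% of all genes passed, 17.2% higher and 20.4% lower) and to 1 and 8 with median centring (37.1%, 17.1% higher and 20.1% lower). COL8A1, COL5A2, COL6A1, COL6A2 and COL9A3 passed in the same direction under each of these scalings.

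The genes that make, export and bind collagen were read from the same fit. Of 47 measured, 23 passed, 10 higher and 13 lower in 10A/143B (48.9%, beside 35.6% of all genes), or 9 and 10 with replicates 2 and 3 averaged. Of the 39 at or above the median level, 24 passed in the fit to such genes (61.5%, beside 55.3% of all genes there). Among 17 enzymes and chaperones of the endoplasmic reticulum, 8 passed as lower and 3 as higher, where 15.7% and 19.9% of all genes did. The averaged fit called 6 lower and 3 higher, and their median log2 difference was -0.33. PLOD1, a lysyl hydroxylase, stood at 137.2, 140.1 and 141 in 10A/143B against 372.2, 481 and 484.4 in 468/143B (-1.56 ± 0.11, adjusted p = 1.9e-05). SERPINH1, the collagen chaperone HSP47, stood at 39.4, 50.6 and 53.1 against 140.1, 125.4 and 126.2 (-1.21 ± 0.16, adjusted p = 3.64e-04). Neither gene's arrays overlapped between the groups. The other lysyl hydroxylases went both ways, PLOD2 being higher (0.56 ± 0.07, adjusted p = 4.38e-04) and PLOD3 lower (-0.52 ± 0.08, adjusted p = 9.61e-04). P3H4, a partner of the lysyl hydroxylases in the endoplasmic reticulum, was higher (1.00 ± 0.15), as was the prolyl isomerase FKBP14 (0.92 ± 0.08). Of the prolyl 4-hydroxylase subunits, P4HA1 (-0.33 ± 0.09) and P4HA2 (-0.25 ± 0.07) passed as lower on 6 arrays but not averaged (adjusted p = 0.0731 and 0.143), and P4HB (-0.10 ± 0.18) did not pass.

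Later steps went both ways, and their counts are to be read against the 19.9% of all genes that passed as higher and 15.7% as lower. Of 6 secretion genes, 2 were higher and 0 lower (33.3% passed, beside 35.6% of all genes). These were SEC23A of the COPII coat (0.73 ± 0.07) and KLHL12, which enlarges that coat for procollagen (0.37 ± 0.08, adjusted p = 0.00534, but 0.0890 averaged). Of 8 genes for removing propeptides, the proteinase genes ADAMTS3 (1.56 ± 0.18) and ADAMTS14 (0.86 ± 0.24) were higher, and the enhancers PCOLCE (-0.58 ± 0.07) and PCOLCE2 (-0.56 ± 0.11) were lower. ADAMTS3 stood at 95.7, 134.4 and 120.3 against 27.9, 32.7 and 25.5. ADAMTS14 was dim, with mean intensities of 21.2 and 4.67, and its difference ran from 0.31 with an offset of 64 to 2.40 with an offset of 1. It did not pass without replicate 3 of 10A/143B (adjusted p = 0.0705) or without replicate 1 (0.0793) or 2 (0.0855) of 468/143B. Among the 5 lysyl oxidases, which cross-link fibrils, LOXL3 fell most, from 317.4, 367.1 and 347.3 in 468/143B to 71.0, 79.3 and 71.5 in 10A/143B (-1.999 ± 0.11, adjusted p = 5.52e-06). LOX, LOXL1, LOXL2 and LOXL4 did not pass, with differences from -0.19 to -0.05. With the replicate block, where 39.2% of all genes passed, FKBP10, LOXL2 and ITGA11 passed as lower and ITGA1 as higher as well (adjusted p = 0.0251, 0.0374, 0.0410 and 0.0492). FKBP10 stood at 69.55, 42.8 and 44.0 in 10A/143B against 415.9, 86.8 and 67.65 in 468/143B. Its groups overlapped, and replicate 1 of 468/143B lay far above the other arrays.

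Collagen receptors included 3 higher and 1 lower of 7, where 19.9% of all genes passed as higher and 15.7% as lower. DDR2, a receptor kinase for fibrillar collagen, was 2.11-fold higher (1.08 ± 0.16, adjusted p = 6.82e-04), although the mean of its probe sets gave 0.17 and did not pass (adjusted p = 0.147). The integrin chains ITGA2 (0.97 ± 0.14) and ITGA10 (0.75 ± 0.13) were higher too. MRC2, an endocytic receptor that clears collagen, was lower on 6 arrays (-0.43 ± 0.13, adjusted p = 0.0289, but 0.105 averaged), and its call was lost without replicate 1 of 10A/143B or replicate 2 or 3 of 468/143B (adjusted p = 0.0529, 0.118 and 0.103). The mean of its probe sets gave -0.99. Of 4 proteoglycans that bind fibrils, BGN fell (-1.27 ± 0.15, adjusted p = 2.24e-04) and DCN, LUM and FMOD did not pass.

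**Figure D4:**
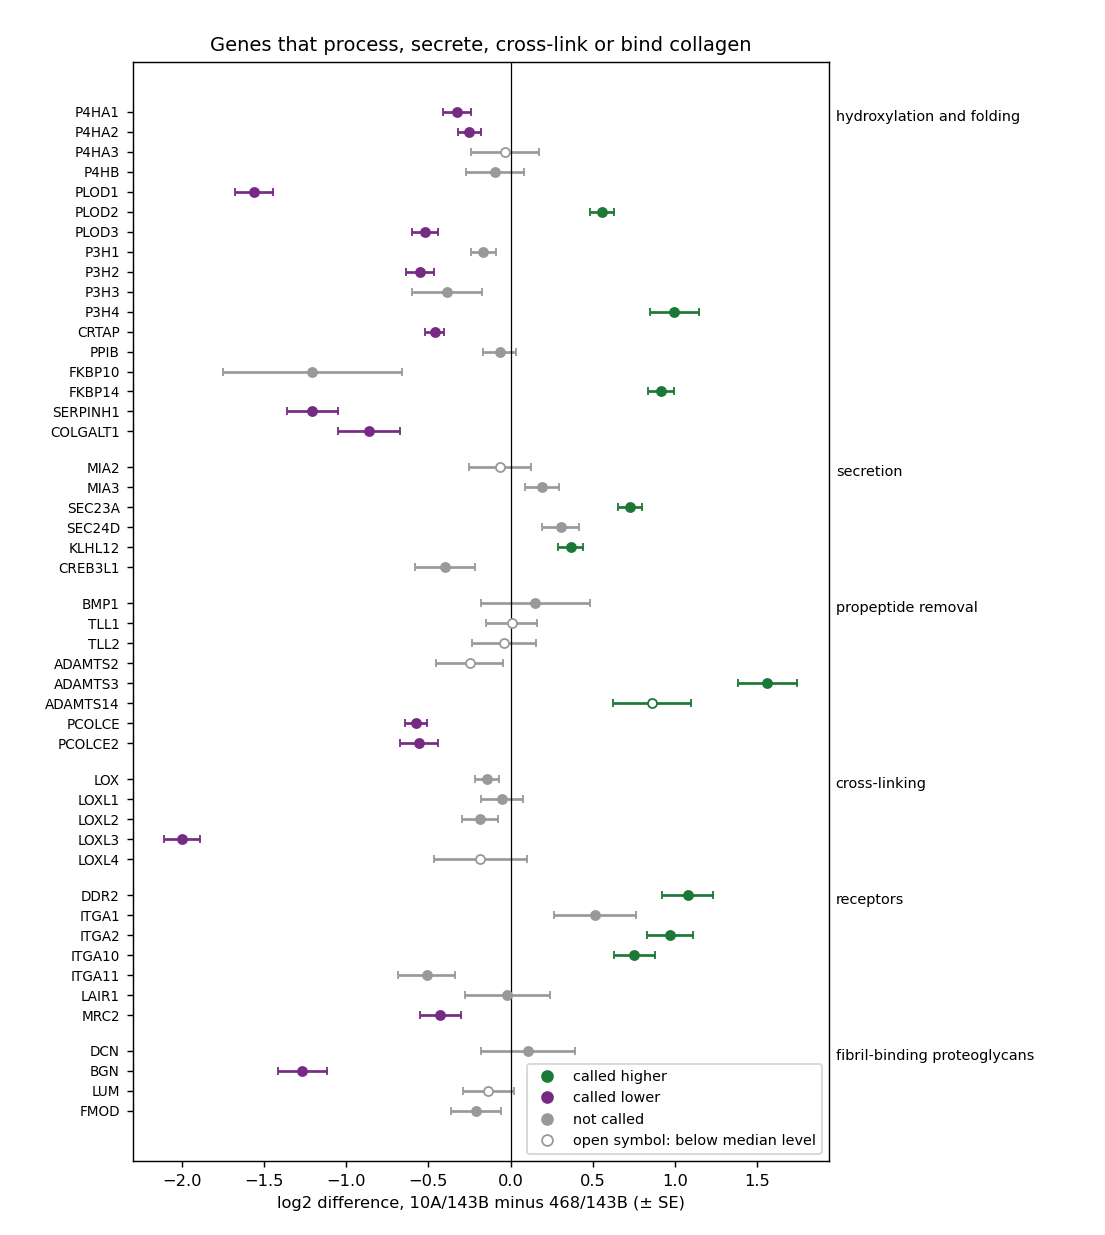
Log2 difference (10A/143B minus 468/143B, ± SE, n = 3 arrays per group) of 47 genes that modify, export, process, cross-link or bind collagen, grouped by role and coloured as passing higher (green), lower (purple) or not passing (grey), open symbols lying below the median level. LOXL3 lies lowest at -1.999 and ADAMTS3 highest at 1.56.

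Neighbouring genes were set beside the collagens that differed most, and their counts are to be read against the 19.9% of all genes higher and 15.7% lower. COL6A1 and COL6A2 lie next to each other on chromosome 21. COL18A1, which passed narrowly as lower (-0.61), is close by and is left out of the neighbour count. Of the 9 other genes measured among the 5 on either side of the pair, 3 were lower and 1 higher, with a median of 0.01 and a range from -1.13 (SPATC1L) to 0.78 (MCM3AP-AS1). The median rests partly on dim genes, such as COL18A1-AS1 (means of 2.52 and 2.06) and LINC01694 (8.93 and 8.83), which can hardly show a difference. The brighter SLC19A1, SPATC1L and LSS were lower, MCM3AP-AS1 was higher and MCM3AP did not pass. The 2 flanking genes PCBP3 (0.06, means of 48.2 and 45.4) and FTCD (-0.22, means of 18.7 and 24.45) did not pass. For the 242 genes of chromosome 21 the median was -0.01. Around COL8A1 on chromosome 3, 7 of the 10 nearest measured genes were higher and 0 lower, with a median of 0.69. The adjoining gene DCBLD2 had mean intensities of 1264 and 297.5 and a difference of 2.03, above that of COL8A1. Around COL5A2, 4 of 10 neighbours were higher and 0 lower, while COL5A2 itself was lower and its neighbour COL3A1 did not pass. Around COL9A3, 1 was higher and 2 lower of 10.

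**Figure D5:**
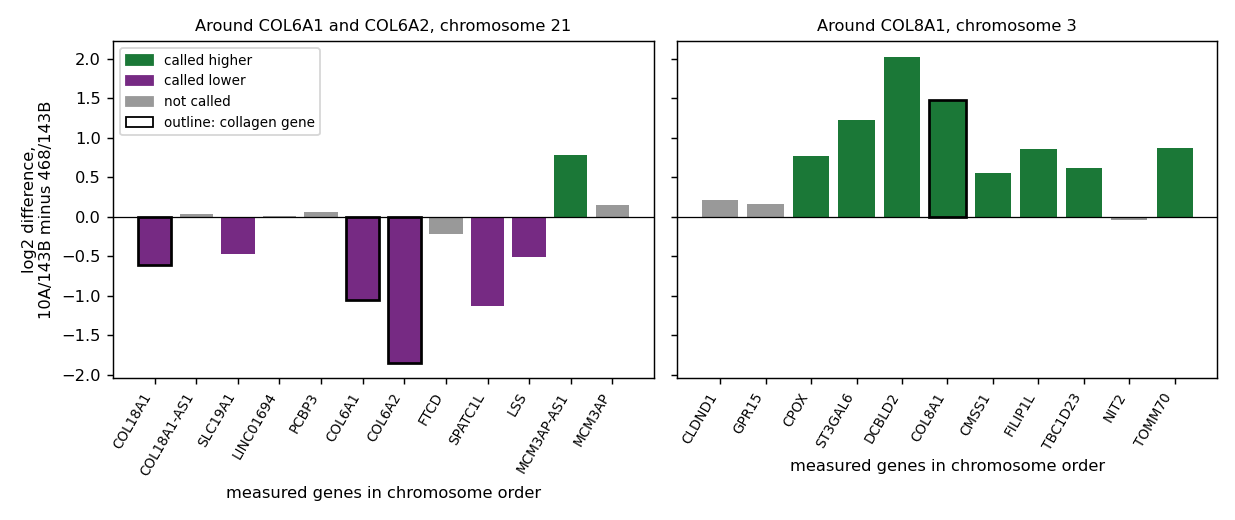
Log2 difference (10A/143B minus 468/143B) of measured genes in chromosome order around COL6A1 and COL6A2 (left) and around COL8A1 (right), bars outlined in black being collagen genes and colours marking genes that passed as higher (green), lower (purple) or not (grey). COL6A2 (-1.84) and COL6A1 (-1.05) stand between flanking genes at 0.06 and -0.22. Further out SPATC1L (-1.13), COL18A1 (-0.61), LSS (-0.51) and SLC19A1 (-0.47) were lower and MCM3AP-AS1 (0.78) was higher. COL8A1 (1.47) stands among genes that were mostly higher as well.

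Marker genes of osteoblasts and other cell types were read as well. Their counts are to be read against the 35.6% of all genes that passed, 19.9% higher and 15.7% lower. Of 8 measured osteoblast genes 1 passed as higher and 2 as lower, of 10 epithelial genes 0 and 3, of 8 fibroblast and smooth muscle genes 1 and 4, and of 4 endothelial or blood genes 1 and 0. Summed intensities of the osteoblast genes ran from 2335 to 2475 in 10A/143B and from 3224 to 3385 in 468/143B. Most of that sum was SPARC, which binds collagen in bone matrix and was lower (means of 1483 and 2354, -0.66 ± 0.06), while SPP1, a bone matrix phosphoprotein, was higher (0.62 ± 0.11). SP7, the osteoblast factor, was dim at mean intensities of 9.5 and 11.7. The epithelial sums, 5005 to 5463 against 6433 to 6989, were nearly all KRT18, a keratin of simple epithelia (means of 4908 and 6198). KRT8, its partner, was lower as well (means of 206 and 439.2), and EPCAM, an epithelial adhesion molecule, did not pass (55.3 and 36.8). Sums over the fibroblast and smooth muscle genes were 1621 to 1809 against 1837 to 2150, with members that moved in opposite directions. PDGFRA was higher (means of 1047 and 596.8, 0.79 ± 0.11). MYL9 (-2.28), ACTA2 (-1.48), PDGFRB (-1.22) and TAGLN (-0.96) were lower, and CNN1, THY1 and FAP did not pass. With replicates 2 and 3 averaged, TAGLN did not pass (limma adjusted p = 0.0539). The calls of RUNX2 (lower, 0.215 averaged), KRT18 (lower, 0.0503), KRT19 (lower, 0.0584) and PECAM1 (higher, 0.185) were lost there as well. Sums over the endothelial or blood genes overlapped, at 164.3 to 207.8 against 106.3 to 166.7. KRT5 stood at the lowest value of 1 on all 10A/143B arrays, and CDH1 was dim in both. As a sign of RNA quality, ACTB 3′ over 5′ probe set ratios spanned 1.59 to 1.92 for 10A/143B arrays against 1.18 to 1.67 for 468/143B arrays, replicate 1 of the latter giving the lowest. The same ratios for GAPDH overlapped between the groups, at 0.933 to 1.007 against 0.966 to 1.072. Their part in the collagen differences was not tested.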

How the data were processed

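Expression was measured on 6 single-colour arrays, 3 per cybrid, numbered by source name. The deposited values are intensities on a linear scale, and no source used here gives the authors' summary algorithm, background correction or scaling. They ran from 1 to 13124.7, with array medians of 21.7 to 24.4 in 10A/143B and 20.4 to 21.4 in 468/143B. Precision is limited by the number of arrays. Deposited intensities were put on a log2(intensity + 16) scale with no further normalization, which understates changes of dim genes. Of 54675 probe sets, 41091 with 1 symbol in the platform's table were kept after control probe sets were left out, and 41037 symbols were updated through Entrez identifiers to RefSeq genes of GRCh38.p14. The 1801 probe sets with several symbols were not named. Each gene was read from 1 probe set, the brightest on average across the 6 arrays.

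The test was limma (version 3.58.1, R 4.3.3), with lmFit and eBayes with an intensity trend, fitted over 19775 genes and separately over 41091 probe sets, with Benjamini-Hochberg adjustment at 0.05 over all of them. Every adjusted p is from limma. The scripts were tested on simulated data. Members and gene lists were chosen with earlier results of these data known. Named with values on every array were collagens that passed, had groups without overlap and a higher group mean at or above the median level, plus COL1A1, COL1A2, COL2A1, COL3A1, COL4A1, COL4A2, COL5A1, COL5A2, COL6A1, COL6A2 and COL6A3 whatever their values. The rule also lists COL17A1, which was not analysed here. For each role of the collagen machinery the rule took up to 4 passing genes with the largest change. COL4A6, COL7A1, COL12A1, COL13A1 and further genes were described after their values were seen.

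Over the 8172 probe sets whose average log2 level exceeded 8, the SD of the difference between replicates 2 and 3 was 0.0790 (10A/143B) and 0.0919 (468/143B), and that between replicate 1 and either was 0.26 to 0.28. Replicates 2 and 3 were thus near duplicates, and a fit with them averaged (2 against 2) is given beside results it changes. Same-numbered arrays deviated together from their group means (correlations of 0.27, 0.21 and 0.21 for numbers 1, 2 and 3). Replicate 2 of 10A/143B with replicate 3 of 468/143B gave 0.25, and 3 with 2 gave 0.20, so this sets number 1 apart and does not tell 2 from 3. The main fit was unpaired, with group as its only term. Since each same-numbered pair exceeded 0.1, a fit with the replicate number as a block is given where it changes a call. The pairing in that fit comes from this check and not from the labels. Further alternatives were the offset, scaling, a level filter, no intensity trend, the choice of probe sets, the gene length trend and each array left out. The fit to replicates 2 and 3 only was chosen after the data were seen.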

Additional observations from a re-analysis of the deposited data

How the results depend on the processing

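COL8A1 (higher) and COL5A2 and COL6A2 (lower) kept their direction and passed in the 17 alternatives run. COL9A3 did so in the 16 that could be run, since it has no probe set without _x_at or _s_at. COL6A1 did so in 16 of 17, the exception being the fit without those suffixes (-0.57). COL4A3 and COL27A1 each lost the call with the sign kept in 10 alternatives and COL18A1 in 6. COL4A3 also lost it without _x_at and _s_at probe sets, where its sign turned. Among single arrays left out, the call of COL4A3 was lost without replicate 2 or 3 of 10A/143B or any 468/143B array. That of COL27A1 was lost without replicate 2 or 3 of 10A/143B or 1 or 3 of 468/143B, and that of COL18A1 without any 1 of the 468/143B arrays. An offset of 64 gave 0.38 for COL4A3, 0.96 for ADAMTS3 and -0.80 for SERPINH1. Genes below the median level were not in the fit with the level filter. The count of collagen genes called higher, 3 in the fit to 6 arrays, was 1 with quantile normalization, with median centring, with replicates 2 and 3 averaged and with the mean of probe sets, and 6 with replicates 2 and 3 only. It ran from 1 to 5 with single arrays left out, from 1 without replicate 2 or 3 of 10A/143B or replicate 3 of 468/143B to 5 without replicate 1 of 10A/143B. The count called lower, 5, was 9 with quantile normalization, 8 with median centring, 8 with replicates 2 and 3 only, 8 with the mean of probe sets and 2 when probe sets ending in _x_at or _s_at were left out, and ran from 4 to 6 with single arrays left out. Among probe sets, 1 was called higher, but 4 with the level filter, where 46 of the 112 were tested. It was 2 with the replicate block, 7 with replicates 2 and 3 only, and 1 to 5 with single arrays left out. The 16 called lower were 10 with replicates 2 and 3 averaged and ran from 10 to 19 with single arrays left out, the lowest without replicate 3 of 10A/143B. The 13 machinery genes called lower were 8 without _x_at and _s_at probe sets, where 37 of 47 could be tested. Shares over all genes or probe sets are not given for replicates 2 and 3 only, single arrays left out, the mean of probe sets, the fit without those suffixes or the level filter on probe sets. Counts from these fits therefore show only how far the calls depended on the processing. The median log2 difference of collagen genes, -0.05, was -0.0799 with an offset of 1, -0.11 with quantile normalization, -0.15 with median centring, -0.25 with the level filter, -0.0814 with replicates 2 and 3 only and -0.21 with the gene length trend removed, and ran from -0.0627 to -0.0312 with single arrays left out.

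Signs turned for COL1A1 (-0.37) and COL5A1 (-0.0261) with the mean of probe sets, for COL4A3 (-0.0061) and COL5A1 (-0.049) when probe sets ending in _x_at or _s_at were left out, and for COL1A2 (0.0867) and COL6A3 (0.0198) with replicates 2 and 3 only. With single arrays left out, COL1A2 ran from -0.16 to 0.0887 and COL6A3 from -0.10 to 0.0363, both turning without replicate 1 of 10A/143B. The cause was not tested. Among the genes named by rule the replicate block added COL1A1 and COL4A2 as calls and changed no other. In all, 478 of the values of single genes under the alternatives kept direction and side of the threshold, 39 lost the call with the sign kept, 10 gained it and 8 changed sign.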
